A study of Mus musculus with 1646 samples.

Results

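Genes of the interleukin-1 (IL-1) and interleukin-6 (IL-6) families were followed through the fibroblasts and mural cells of the adult mouse colon. They were the cytokine genes Il33, Il6, Lif and Il11 and the receptor genes Il1rl1, Il1r1, Il1rap, Il6st, Osmr and Il11ra1. They were taken by symbol, and all 10 were found among the 46517 genes of the count table, which holds 1646 single cells.

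Il33 and Il1rl1 marked opposite fibroblast populations. Il33, an IL-1 family alarmin, lay at 206.1 and 236.1 counts per 500000 in the fibroblasts with high Cd34 (clusters 5 and 7). Il1rl1, the gene of its receptor ST2, lay at 269.7 ± 140.4 (SD, n = 3 reporter lines) in the Tnc-high fibroblasts of cluster 2 and at no more than 1.79 in every other cluster. Il6, Lif and Il11 were carried by few cells, whereas Il6st, Osmr and Il11ra1, parts of the receptors for those cytokines, were counted in most cells.

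Cytokines of the IL-1 family bind a specific receptor chain, which then recruits the accessory protein encoded by Il1rap and signals through MyD88 to NF-kB. IL-33 is stored in the nucleus of barrier and stromal cells and acts on ST2 when cells are damaged, whereas IL-1 acts on the receptor encoded by Il1r1. Cytokines of the IL-6 family use gp130, encoded by Il6st, together with a partner such as the receptors for oncostatin M (Osmr), leukaemia inhibitory factor (Lifr), IL-6 (Il6ra) or IL-11 (Il11ra1), and signal mainly through STAT3. In the gut both families are known for their part in the response of the stroma to damage and inflammation.

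The cells came from untreated male mice of 10 to 20 weeks, and no group carried a treatment or an induced deletion. Plates are named here by their line and a letter. Each cell was sorted from dissociated colon as positive for 1 of 4 fluorescent reporters and negative for the endothelial protein CD31. Acta2GFP, with the promoter of smooth muscle actin, gave 567 cells on 2 plates. PdgfrbGFP, a transgene of the PDGF receptor beta gene, gave 761 cells on 4 plates. PdgfraGFP, in which a nuclear green protein was placed at the PDGF receptor alpha locus, gave 13.8% of all cells on 2 plates. Cspg4dsRED, a transgene of the NG2 gene, gave 91 cells on 1 plate, so that its values rest on few cells. The labels give each cell 1 line, but the study's methods also allow crosses of the strains and sorting on antibodies to the PDGF receptors, so the lines may not be fully separate animals. A sort on a reporter only returns cells in which that promoter is active, and elastase was added to the dissociation of Acta2GFP tissue alone. Line and elastase therefore cannot be told apart for Acta2GFP, nor line and plate for Cspg4dsRED.

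GEO's labels gave each cell 1 of 8 clusters. Clusters 1, 2, 5, 6 and 7, with 1307 cells, carried fibroblast markers, whose summed level was 3617 to 5880 against 261.4 to 956 in clusters 3, 4 and 8, which held the other cells. In cluster 4 the pericyte markers summed to 5444, in clusters 3 and 8 the smooth muscle markers to 8229 and 10912. Tnc lay at 1851 to 2092 across the lines of cluster 2 and Cd34 at 1051 to 1544 across those of cluster 7. Gene counts per cell ran from 47598 to 1494292, with a median of 248628, and the median was 113721 for Cspg4dsRED and 322654 for PdgfraGFP.

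Levels are mean counts per 500000 gene counts of a cell, averaged over the cells of a cluster within a line of at least 10 such cells, and then over lines. The fold changes come from summed counts per cluster and line, fitted with edgeR over all genes, and a gene was called at a Benjamini-Hochberg adjusted p under 0.05. The labels name no mouse, so these p-values measure only the spread between lines, which may be technical. The clusters were drawn from the same counts, so the tests between clusters describe those clusters and are not independent of how they were made.

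Il1rl1 (ENSMUSG00000026069) lies on chromosome 1 at 40429570 to 40465415 on the plus strand of GRCm38, in a row of receptor genes of the same family. It is transcribed from more than 1 start, which leads to a membrane and a soluble form of the receptor. The count table sums both, so the 2 start windows known to RefSeq (build GRCm38.p6, 250 bases before to 50 after each start) are shown here for what the counts cannot separate. The upstream window lies at chr1:40429320-40429619 and the downstream window at chr1:40439379-40439678, both on the plus strand.
Il1rl1 upstream start: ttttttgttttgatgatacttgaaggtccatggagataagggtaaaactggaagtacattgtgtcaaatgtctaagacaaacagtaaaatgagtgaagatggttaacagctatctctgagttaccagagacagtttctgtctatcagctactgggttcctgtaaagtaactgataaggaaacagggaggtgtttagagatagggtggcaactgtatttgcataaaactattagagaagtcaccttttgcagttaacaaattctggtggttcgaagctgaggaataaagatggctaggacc
Il1rl1 downstream start: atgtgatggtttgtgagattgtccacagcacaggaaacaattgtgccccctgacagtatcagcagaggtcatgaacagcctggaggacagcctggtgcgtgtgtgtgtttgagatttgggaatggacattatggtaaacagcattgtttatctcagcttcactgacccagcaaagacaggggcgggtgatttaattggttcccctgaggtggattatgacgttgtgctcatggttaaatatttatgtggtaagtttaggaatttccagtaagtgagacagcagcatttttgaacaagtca
Neither window held a match to the motifs searched on both strands, which were TGANTCA for AP-1, TTCNNNGAA for STAT, GGGNNTTCC for NF-kB, TATAAA for the TATA box and TGACGTCA for the cyclic AMP response element. Among 32851 windows of that length these motifs occurred in 7.81%, 8.3%, 5.82%, 13.6% and 1.79%. Only these exact patterns were searched, so sites of another length or spacing, for NF-kB above all, would be missed.

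**Figure D1:**
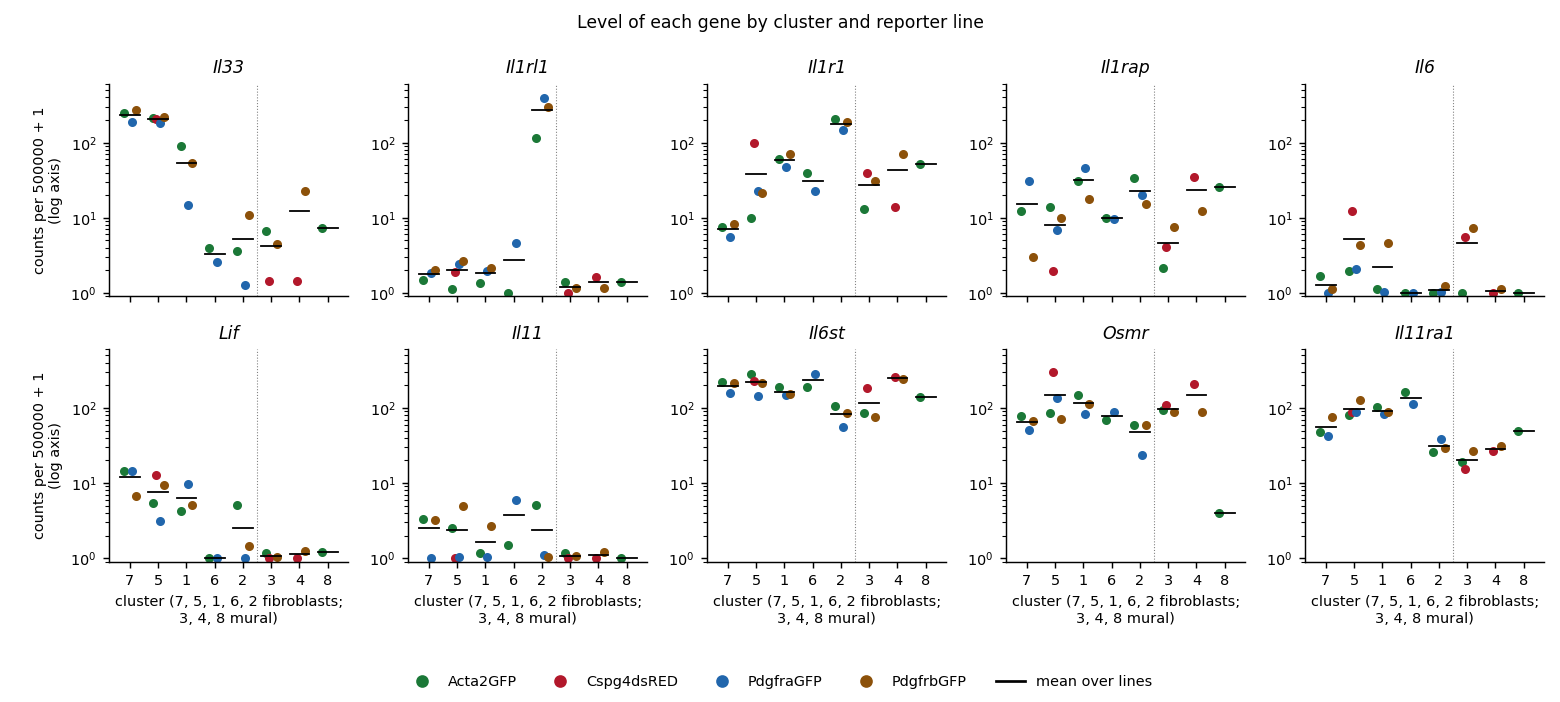
Each point is the level of a gene in one reporter line of a cluster, as counts per 500000 plus 1 on a log axis, and bars are means over lines. Il33 was highest in clusters 7 and 5, Il1rl1 stood above 100 counts only in cluster 2, and Osmr was lowest in cluster 8.

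Among the ligands, Il33 (ENSMUSG00000024810, chromosome 19, 29925114 to 29960718, plus strand) had by far the most counts, with 128438 over 1183 cells. In cluster 7 it lay at 248.96 in Acta2GFP, 186.5 in PdgfraGFP and 272.9 in PdgfrbGFP. In cluster 5 the 4 lines gave 215.2 (Acta2GFP), 203.8 (Cspg4dsRED), 183.3 (PdgfraGFP) and 221.8 (PdgfrbGFP), so that the lines of both clusters overlapped. Cluster 1, the third fibroblast cluster with Cd34, was lower at 89.9, 13.99 and 53.4, and its lines did not reach those of cluster 5. The remaining clusters, fibroblast cluster 2 included, lay between 2.27 and 11.2.

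The share of cells with at least 1 Il33 count was also highest in clusters 7, 5 and 1. It was 96% in cluster 7, 92.9% in cluster 5, 78.9% in cluster 1 and 35.2 to 40% elsewhere. After every cell was thinned to 50000 counts (11 shallower cells were left out), 86.4%, 85.1% and 57.6% remained in clusters 7, 5 and 1 and 13.6 to 24.1% elsewhere. The Il33 signal was spread over many cells, since the 10 richest cells held only 10.4% of its counts. In the median cell of cluster 7 it lay at 203.7, against 8.63 in cluster 1. In cluster 2 the share differed between lines, since 29 of 30 PdgfrbGFP cells but 11 of 44 Acta2GFP and 11 of 55 PdgfraGFP cells had an Il33 count. These counts were low, with the median cell of cluster 2 at 0 and a PdgfrbGFP level of 9.90. Whether they went with position on the plate, as described below for Il1rl1, was not examined.

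Il1rl1 had 31274 counts, and 39 of the 39 wells with 100 or more of them belonged to cluster 2. The level there was 115.9 in Acta2GFP, 391.1 in PdgfraGFP and 302.2 in PdgfrbGFP, and the lowest of these lines stood above every line of the other clusters. The next cluster, 6, was at 0 in Acta2GFP and 3.57 in PdgfraGFP, and its values overlapped with those of clusters 5, 1 and 7. Within cluster 2 the gene was uneven, with a median cell at 12.5, an upper quartile of 386.2 and a maximum of 2694. At least 10 counts were found in 60 of its cells (45.8%), in 65 of all fibroblasts and in 0 mural cells.

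Low Il1rl1 counts outside cluster 2 went with the position of the cell on its plate. Of 1515 cells outside cluster 2, those that shared a plate row or column with a well of 100 or more Il1rl1 counts had at least 1 count in 55.6%, at a mean level of 2.16. Of those that shared none, 51 of 1033 (4.94%) had a count, at a level of 0.198. This held on most plates, for example in 77.7% against 19.3% of cells on plate B of PdgfrbGFP and in 27 of 32 against 0 of 15 on plate B of PdgfraGFP, but not on plate C of PdgfrbGFP, with 0 of 13 against 3 of 120. In cluster 6 the shares were 20 of 32 and 1 of 13, and among mural cells they were 27.8% and 4.91%. Transfer of reads between wells was not tested. For the share of 46.7% of cluster 6 cells with a count, expression and transfer cannot be told apart here. Without the wells that shared a row or column, no cluster other than 2 was above 0.527.

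**Figure D2:**
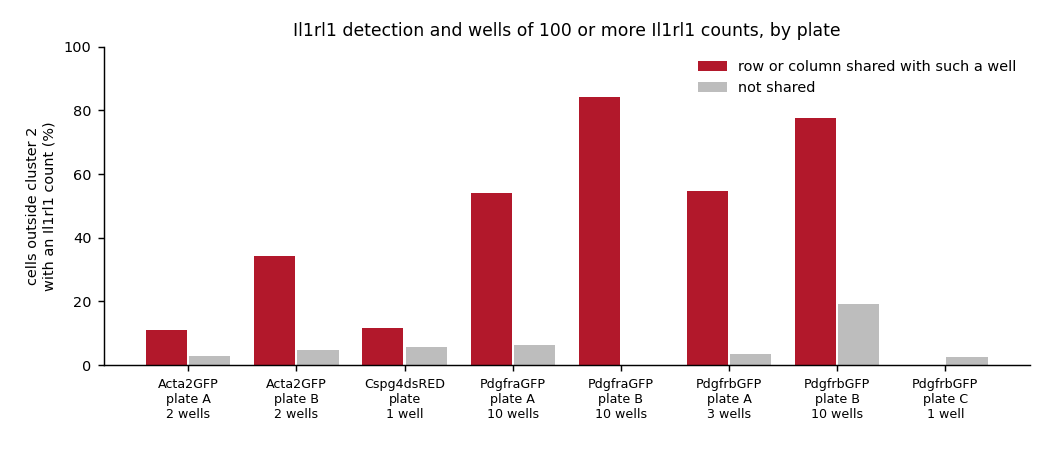
Bars give, for each plate, the percent of cells outside cluster 2 with an Il1rl1 count, split by whether the cell shared a row or column with a well of 100 or more counts. On plates A and B of PdgfraGFP and of PdgfrbGFP the shared bars stood at 54.1 to 84.4% and the others at no more than 19.3%. Plate D of PdgfrbGFP had no such well and is not drawn.

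**Figure D3:**
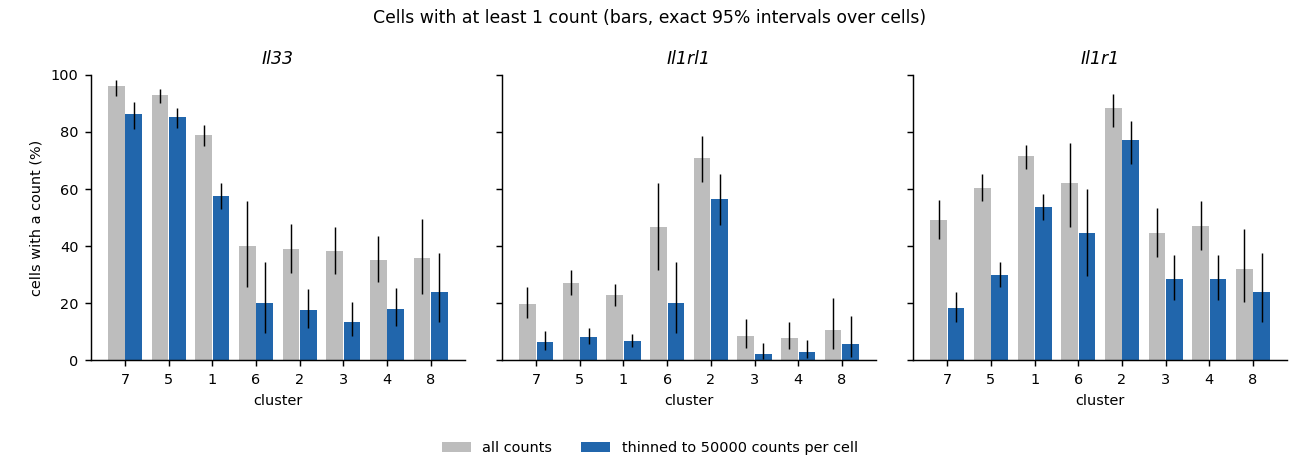
Bars give the percent of cells with at least 1 count of Il33, Il1rl1 or Il1r1 by cluster, with all counts (grey) and after thinning to 50000 counts (blue), and lines are exact 95% binomial intervals, which cover counting error only. Il1rl1 in cluster 2 kept 56.5% after thinning, and every other cluster fell to 20% or less.

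ST2 is also known from mast cells and from innate lymphoid cells. The authors had removed cells with endothelial or immune signatures, and cells without Pdgfra or Pdgfrb, before deposit, so low levels of such markers were partly set by that filter. The 4 mast cell markers Cpa3, Mcpt4, Tpsb2 and Ms4a2 were all at 0 in cluster 2. The T cell gene Cd3e was also at 0 there, and the lymphoid list, which includes Rora and is not specific to lymphocytes, summed to 58.8 to 85.4 in the lines of cluster 2 against 101.7 to 133.1 in cluster 1. The immune list of Ptprc, Cd68 and Csf1r summed to 2.43 to 9.16 in cluster 2 and to 4.82 to 8.11 in cluster 1. The list for interstitial cells of Cajal (Kit and Ano1) did differ, with a summed level of 98.1 to 219.6 in the lines of cluster 2 and 0.0370 to 43.9 in those of clusters 1, 5 and 7. This came from Ano1, a chloride channel gene, at a mean of 170.8 in cluster 2, whereas Kit, the gene that defines those cells, was at 0.503. The part of such cells in the cluster 2 values was not tested further. Endothelial cells, another source of Il33 in many tissues, were gated out, and the endothelial list lay between 6.03 and 12.9 in the 8 clusters.

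Il1r1 (ENSMUSG00000026072, chromosome 1, 40225080 to 40317257, plus strand), the signalling receptor for IL-1, was highest in cluster 2. The lines gave 204.2 (Acta2GFP), 144.8 (PdgfraGFP) and 185.02 (PdgfrbGFP), above the 59.2, 46.8 and 69.1 of cluster 1. It was lowest in cluster 7, at 6.47, 4.62 and 7.33. In cluster 5 the lines disagreed, with 8.85, 21.8 and 20.3 in Acta2GFP, PdgfraGFP and PdgfrbGFP and 98.6 in the 13 cells of Cspg4dsRED. Mural clusters 3, 4 and 8 lay at 26.7, 41.7 and 51.7. After thinning 77.1% of cluster 2 cells and 53.9% of cluster 1 cells had a count, against 18.2% in cluster 7.

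Il1rap (ENSMUSG00000022514, chromosome 16, 26581704 to 26730117, plus strand) encodes the chain shared by both of these receptors. It was low and variable, from 3.56 in cluster 3 to 30.5 in cluster 1, and the ranges of neighbouring clusters overlapped. In cluster 2 it lay at 32.7, 19.1 and 14.1, and 35.9% of cells had a count. Per kilobase of exon, cluster 2 held 39.1 for Il1rl1, 28 for Il1r1 and 1.93 for Il1rap, so the accessory chain was the least counted of the 3 on the scale that allows a comparison between genes. An antisense gene overlapping Il1rap had 6.57% as many counts, and the sources used here do not say whether strand was used in counting.

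Il6st (ENSMUSG00000021756, chromosome 13, 112464070 to 112510086, plus strand) was the most widely detected member, in 92.3% of cells. Its level ran from 248.8 in cluster 4 (255.7 in Cspg4dsRED and 241.9 in PdgfrbGFP) to 81.8 in cluster 2 (104.6, 55.1 and 85.8). Clusters 6, 5, 7 and 1 lay at 236.7, 217.8, 196.6 and 162.6, with overlapping lines. By these means the cluster with the most Il1rl1 and Il1r1 had the least Il6st of the 8. Cluster 3 was next at 115.4, from 84.99 in Acta2GFP, 185.8 in Cspg4dsRED and 75.4 in PdgfrbGFP. In Acta2GFP and PdgfrbGFP cluster 3 was below cluster 2. The order of these clusters therefore rests on Cspg4dsRED, which gave no value in cluster 2.

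Osmr (ENSMUSG00000022146, chromosome 15, 6813577 to 6874969, minus strand), the partner of gp130 for oncostatin M, was found in 79.6% of cells. It lay at 147.9 in cluster 5, where Cspg4dsRED gave 303.5 and the other lines 69.9 to 134.4, at 207.5 and 86.5 in the lines of cluster 4, at 114.7 in cluster 1 and 96.8 in cluster 3. Clusters 6 and 7 followed at 77.2 and 63.6, and cluster 2 was lower at 58.2, 22.96 and 58.3. In cluster 8, known here from Acta2GFP alone, it was at 3.02. Osm, the ligand gene, was at 0 in every cluster and line of at least 10 cells.

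Il11ra1 (ENSMUSG00000073889, chromosome 4, 41699989 to 41769474, plus strand) encodes the specific chain for IL-11. It was highest in cluster 6, at 160.5 and 111.1, followed by cluster 5 at 95.4 ± 21.1 (SD, n = 4) and cluster 1 at 90.2 ± 9.74 (SD, n = 3). Cluster 7 stood apart below them at 54.2, the 1 line of mural cluster 8 followed at 48.97, within the range of cluster 7, and clusters 2, 4 and 3 were at 30.3, 27.6 and 19.5. The annotated gene overlaps 6 other genes, among them Galt on the same strand, so part of its counts may be uncertain. Its near copy Il11ra2 was at 0.

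Il6, Lif and Il11 encode ligands of gp130. Il6 (ENSMUSG00000025746, chromosome 5, 30013114 to 30019981, plus strand) was counted in 7.35% of cells, Lif (ENSMUSG00000034394, chromosome 11, 4257557 to 4272514, plus strand) in 14% and Il11 (ENSMUSG00000004371, chromosome 7, 4772373 to 4782859, minus strand) in 7.47%. The 10 richest cells held 64.6% of the counts of Il6, 53.5% of those of Lif and 84.1% of those of Il11. At this depth a count of 0 in a cell does not show that the gene was silent.

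Lif was counted mainly in clusters 7, 5 and 1. It lay at 13.4, 13.5 and 5.79 in the lines of cluster 7, at 2.10 to 11.8 in cluster 5 and at 3.28 to 8.77 in cluster 1. In no line of the mural clusters did it exceed 0.255, and in cluster 6 it was found in 0 of 45 cells, which allows up to 7.87% of cells with a count at this depth (exact binomial, counting error only) and says nothing of cells that express it below detection. The 4.09 of Acta2GFP in cluster 2 came from 1 cell.

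Il6 reached 4.18 in cluster 5, 3.64 in cluster 3 and 1.25 in cluster 1. The value of cluster 3 came from 7 cells, and on plate C of PdgfrbGFP 1 cell held 85.2% of the counts. The largest line value, 11.3 for Cspg4dsRED in cluster 5, came from 1 of 13 cells. In cluster 8 it was found in 0 of 56 cells, which allows up to 6.38% of cells with a count, in the cluster with the lowest median depth. Il11 lay between 0 and 2.75 in the cluster means, and its lines overlapped in every neighbouring pair of clusters for which a spread could be given.

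The first comparison asked which members differ between fibroblasts and mural cells. Of the 10 members 4 were higher in fibroblasts and 0 lower, where 3.21% of 19173 genes were called higher and 3.36% lower. Il1rl1 lay at 10.9, 24.9, 96.8 and 17.1 in the fibroblasts of Acta2GFP, Cspg4dsRED, PdgfraGFP and PdgfrbGFP and at 0.400, 0.324 and 0.199 in the mural cells of Acta2GFP, Cspg4dsRED and PdgfrbGFP. Il33 lay at 155.2, 121.2, 68.9 and 144.5 against 5.94, 0.449 and 13.6. Neither gene's groups overlapped. The fibroblast values of Il1rl1 rest on cluster 2, since clusters 1, 5 and 7 together lay at 0.334, 0.739, 1.15 and 1.34 in the 4 lines, and the 24.9 of Cspg4dsRED rests on 1 cell of cluster 2. The log2 fold changes of Il1rl1 and Il33 were 7.52 (SE 1.24, adjusted p = 0.00716, edgeR) and 4.16 (SE 0.987, adjusted p = 0.0357, edgeR). The mean Il1rl1 level of mural cells was 1.20 where a plate row or column was shared with a well rich in Il1rl1. It was 0.139 in the other mural cells, and the part of these low counts in the size of the change was not tested.

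Lif and Il11ra1 were the other members called. Lif lay at 6.26, 11.3, 4.03 and 5.72 in fibroblasts against 0.179, 0 and 0.158 in mural cells (log2 fold change 6.55, SE 1.19, adjusted p = 0.0111, edgeR). Il11ra1 lay at 75.4, 72.2, 73.4 and 97.6 against 36.95, 20.1 and 27.7, a change of 1.64 (SE 0.303, adjusted p = 0.0117, edgeR). In both, every fibroblast value stood above every mural value. For the other 6 the edgeR log2 fold changes ran from -0.08 (Il6) to 4.86 (Il11, adjusted p = 0.0768), with Il1r1 at 1.30, Il1rap at 0.43, Il6st at 0.38 and Osmr at 0.37.

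With the line as a block, used because lines occur in both groups, Il1rl1 stayed called in edgeR (log2 fold change 5.99, adjusted p = 0.0205). Il33 (5.28, adjusted p = 0.0710), Lif (6.77, adjusted p = 0.0712) and Il11ra1 (1.68, adjusted p = 0.0530) did not, and 3.08% of genes were called in place of 6.57%. When all sums of cluster and line entered one fit, in which each cluster had equal weight, the edgeR log2 fold changes were 3.48 for Il1rl1 (adjusted p = 0.0128), 2.09 for Il33 (adjusted p = 0.186) and 3.63 for Lif (adjusted p = 0.9999). In that fit Il11ra1 stayed called (1.44, adjusted p = 0.00267, edgeR) and Osmr gained a call (1.65, adjusted p = 0.0105, edgeR). With plates in place of lines Il11ra1 fell to 0.93 and was not called (adjusted p = 0.120, edgeR), whereas Il11 was (6.03, adjusted p = 0.00661, edgeR), as it was by DESeq2 (adjusted p = 0.00021). Without PdgfrbGFP 0 members were called by edgeR, where the adjusted p was 0.0563 for Il1rl1 and 0.0784 for Il33. Without Acta2GFP only Il1rl1 was called, and without Cspg4dsRED Il1rl1 was not (adjusted p = 0.0638, edgeR). In the same order 1.81%, 3.24% and 5.66% of all genes were called in these fits, in place of 6.57%. The median log2 fold change of the members was 1.47, that of all genes tested -0.0278.

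Of 53 other genes of these pathways, 44 could be tested here, and their median was 0.485. Only Il1rl2, which encodes the receptor for IL-36, was higher in fibroblasts (log2 fold change 3.65, adjusted p = 0.0267, edgeR). Only Myd88, the adaptor of the IL-1 receptors, was lower (-1.45, adjusted p = 0.0147, edgeR), at 25.5 to 52.6 in fibroblasts and 63.8 to 86.3 in mural cells.

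**Figure D4:**
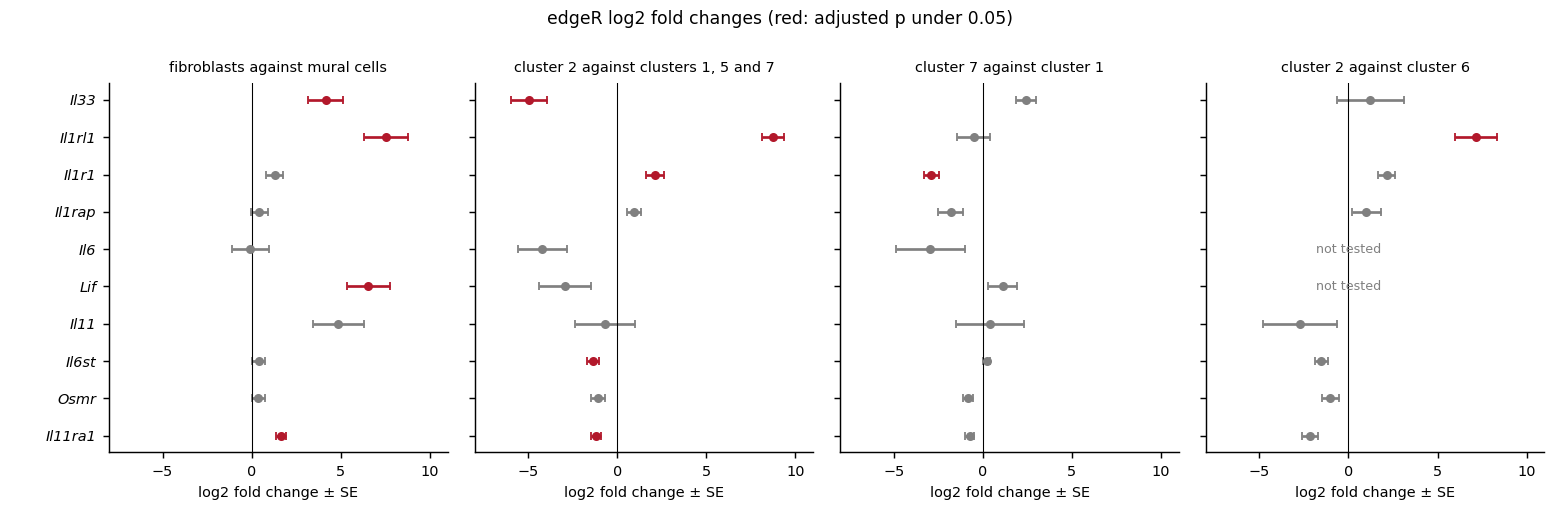
Points are edgeR log2 fold changes of summed counts and bars their SE, in 4 comparisons, with adjusted p under 0.05 in red. Il1rl1 reached 8.73 for cluster 2 against clusters 1, 5 and 7, where Il33 fell to -4.96, and Il1r1 was the only member called between clusters 7 and 1.

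The second comparison set cluster 2 against the fibroblasts of clusters 1, 5 and 7. Here 2 members were higher and 3 lower, where 3.5% of 15893 genes were called higher and 3.76% lower. Il1rl1 had a log2 fold change of 8.73 (SE 0.633, adjusted p = 0.000181, edgeR) and Il1r1 of 2.13 (SE 0.493, adjusted p = 0.0307, edgeR). In clusters 1, 5 and 7 the mean Il1rl1 level was 2.23 in cells sharing a plate row or column with a well rich in Il1rl1. In those that shared none it was 0.215. The part of these low counts, described above by plate position, in the size of the Il1rl1 change was not tested. Il1r1 lay at 28.5, 94.3, 31.3 and 40.1 in clusters 1, 5 and 7 together, so its highest comparator, Cspg4dsRED, still stood below the lowest line of cluster 2, at 144.8.

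Il33, Il11ra1 and Il6st were lower in cluster 2. Il33 lay at 2.60, 0.291 and 9.90 in cluster 2 and at 174.4, 130.5, 107.2 and 154.4 in the comparators, a log2 fold change of -4.96 (SE 1.03, adjusted p = 0.0190, edgeR). Il11ra1 lay at 24.9, 37.8 and 28.1 against 78.6, 77.8, 80.1 and 102.3 (-1.17, SE 0.278, adjusted p = 0.0336, edgeR). Il6st lay at 104.6, 55.1 and 85.8 against 226.03, 328.9, 146.9 and 186.2 (-1.37, SE 0.345, adjusted p = 0.0432, edgeR). In all 3 the groups did not overlap. DESeq2 gave Il33 no adjusted p here (log2 fold change -4.93). Il11ra1 was not called by edgeR with the line as a block (adjusted p = 0.0581), with no filter (0.0554) or in a single fit of all sums (0.0553). The Il6st call was lost whichever line was left out (adjusted p = 0.0519 to 0.158, edgeR).

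Il6 (-4.20, adjusted p = 0.109), Osmr (-1.09, 0.128), Il1rap (0.94, 0.244), Lif (-2.94, 0.309) and Il11 (-0.71, 0.883) were not called by edgeR. DESeq2 called Il6 (-4.21, adjusted p = 0.00545). Il1rl1 was called in every alternative. When a line was left out, the number of members called by edgeR fell to 1 without Acta2GFP, 2 without PdgfraGFP, 2 without PdgfrbGFP and 4 without Cspg4dsRED. In the same order 1.18%, 3.69%, 4.42% and 7.6% of all genes were called in these fits, in place of 7.26%. Il33 was among the calls in all but the fit without Acta2GFP. Il1r1 was called only without Cspg4dsRED among these, as was Il11ra1.

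Members of the same pathways outside the 10 also stood out in cluster 2, where 4 of 39 tested rose and 1 fell. Nfkbia, an inhibitor of NF-kB that NF-kB itself induces, lay at 331.8, 338.35 and 433.01 against 71.3 to 146.2 (log2 fold change 1.71, adjusted p = 0.00239, edgeR). Socs3, a feedback inhibitor of STAT3 signalling, lay at 554, 284.6 and 363.9 against 72.8 to 188.3 (1.72, adjusted p = 0.0173, edgeR). Both answer to many stimuli, and the score of 16 genes known to rise during tissue dissociation, Socs3 among them, was 7.78 in cluster 2 and 5.35 in clusters 1, 5 and 7. The part of dissociation in these values was not tested.

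Receptor genes were also higher. Il18rap, an accessory chain of the IL-18 receptor, lay at 19.1, 1.36 and 10.9 against at most 0.0805 (8.23, adjusted p = 0.00406, edgeR), from 9, 1 and 4 cells of cluster 2. Il1rl2 lay at 52.7, 59.6 and 50.6 against 5.54 to 15.2 (2.53, adjusted p = 0.0231, edgeR). The pathway genes had a median of 0.288, the members of -1.13 and all genes of 0.00472.

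Cluster 6 is the other fibroblast cluster with little Cd34, and 8 members could be tested against it. Its mural markers were higher than those of cluster 2, with the smooth muscle list at 591.3 and 1784 in its 2 lines against 103.4 to 326.8, and the pericyte list at a mean of 225.4 against 43.8. Their part in the differences was not tested. Il1rl1 was higher in cluster 2 (log2 fold change 7.16, SE 1.20, adjusted p = 0.0369, edgeR), where 0.814% of 13516 genes were called higher and 0.163% lower. Il11ra1 (-2.17, adjusted p = 0.0698) and Il1r1 (2.15, 0.0876) missed the threshold of edgeR. Il6st (-1.52), Osmr (-1.02), Il1rap (1.01), Il33 (1.23) and Il11 (-2.73) had adjusted p-values of 0.123 to 0.875 in edgeR. Cluster 6 had only 2 lines, and without PdgfrbGFP the call for Il1rl1 was lost (adjusted p = 0.102, edgeR). The Acta2GFP cells of cluster 6 had 0 Il1rl1 counts, so the size of the change rests on PdgfraGFP, and without that line the fitted value was 14.2, which is no measure of size. Over all cells of cluster 6 the mean Il1rl1 level was 2.97 where a plate row or column was shared with a well rich in Il1rl1. In the cells that shared none it was 0.527, from 1 cell with a count. The part of these low counts, described above by plate position, in the size of the change was not tested. With the line as a block 0.54% of genes were called in place of 0.977%, Il1rl1 among them (adjusted p = 0.0264, edgeR). Nfkbia (4.24, adjusted p = 0.00532, edgeR) and Socs3 (3.70, adjusted p = 0.00822, edgeR) were again higher in cluster 2, and the dissociation score of cluster 6 was 4.10.

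Cluster 7 was then compared with cluster 1, a pair chosen with their Il33 levels known. Of the 10 members 1 was called, Il1r1, which fell by 2.89 on the log2 scale (SE 0.397, adjusted p = 0.0111, edgeR), where 1.25% of 15862 genes were called lower and 1.24% higher. With the line as a block, where 1.26% of genes were called in place of 2.49%, it was not called (adjusted p = 0.0593, edgeR), nor without Acta2GFP (0.294) or PdgfrbGFP (0.249). Il33 had a log2 fold change of 2.44 (SE 0.574), which describes the difference for which the pair was chosen. The other members, none of them called by edgeR, were at -2.95 (Il6), -1.80 (Il1rap), -0.81 (Osmr), -0.75 (Il11ra1), -0.52 (Il1rl1), 0.22 (Il6st), 0.39 (Il11) and 1.11 (Lif). Of 38 other pathway genes 1 was called, Irak3, a negative regulator of the IL-1 receptor pathway, at 51.96, 63.9 and 65.04 in cluster 7 and 12.7, 11.8 and 20.5 in cluster 1 (2.01, adjusted p = 0.0124, edgeR).

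Among mural cells 7 members could be tested. Between the pericyte-like cluster 4 and the smooth-muscle-like cluster 3, 0 members were called by edgeR and 0 by DESeq2, where edgeR called 0.263% of 16328 genes higher and 0.404% lower. At an unadjusted p under 0.05 there was 1, Il6st, with a log2 fold change of 1.11 (adjusted p = 0.423, edgeR), at 255.7 and 241.9 in cluster 4 and at 84.99, 185.8 and 75.4 in cluster 3. The others were at 2.74 (Il33), 2.08 (Il1rap), 0.81 (Il11ra1), 0.71 (Il1r1), 0.50 (Osmr) and -6.03 (Il6). With the line as a block edgeR called 1.04% of genes in place of 0.668%, and again 0 members. Cluster 8, the other smooth-muscle-like cluster, had 1 line, so its own spread was not measured and its differences from cluster 3 are given without p or SE. When that line was assumed to vary like the others, 0.643% of genes were called lower and 0.398% higher by edgeR, which is given as background only. Osmr lay at 3.02 in the 52 cells of Acta2GFP in cluster 8 and at 92.9, 109.8 and 87.7 in cluster 3 (log2 fold change -4.63, and -4.70 to -4.21 over the alternatives). The 92.9 of cluster 3 is that of Acta2GFP and gives the comparison within that line. Il6 had 0 counts in cluster 8, and the other members were at 0.39 (Il6st), 1.32 (Il1r1), 1.33 (Il11ra1), 1.55 (Il33) and 3.12 (Il1rap).

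Differences between lines were examined inside clusters 1, 5 and 7, with plates as samples. For Acta2GFP and PdgfraGFP (2 plates each) against PdgfrbGFP (4 plates, shared by both comparisons) edgeR called 0 members and 0% of 17650 genes in either direction, which does not show that the lines are alike. At an unadjusted p under 0.05 there were 514 and 1129 genes, and DESeq2 called 0.141% and 1.55%. Il11 had the smallest unadjusted p among the members, 0.00956 in PdgfraGFP, with a log2 fold change of -7.77 (adjusted p = 0.749, edgeR), and was called by DESeq2. Without plate D of PdgfrbGFP the change was -5.37 (adjusted p = 0.710, edgeR). The other log2 fold changes ran from -2.84 (Il6) to 0.98 (Il1rap) for Acta2GFP, with Il11 at -2.22, Il1rl1 at -1.57, Il1r1 at -0.89, Il11ra1 at -0.28, Il33 at 0.15, Il6st and Lif at 0.49 and Osmr at 0.63. For PdgfraGFP they were -0.94 (Il1r1), -0.90 (Il6), -0.84 (Il33), -0.19 (Il6st), -0.14 (Il11ra1), 0.18 (Il1rap), 0.23 (Il1rl1), 0.36 (Lif) and 0.46 (Osmr). An Il11 count was found in 3 cells of PdgfraGFP and in 70 of 532 cells of PdgfrbGFP.

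Il6 differed between plates of 1 line. In clusters 1, 5 and 7, plate B of PdgfrbGFP gave 5.95 for Il6, from 76 cells, and the other plates of that line 0.411, 1.08 and 2.96, the last from 1 cell. Its Lif was 8.89 and its Il33 124.98. Its dissociation score, 7.95, was the highest of the 9 plates, which ran otherwise from 3.62 to 5.91. Over all cells of these clusters the median score was 7.60 with an Il6 count and 5.32 without, but most cells with Il6 came from that plate, and within it the medians were 8.05 and 7.94. For Lif the pooled medians were 6.73 and 5.31. The median with Lif was also the higher one within each of the 5 plates with at least 10 such cells, for example at 3.95 and 3.46 on plate A of Acta2GFP, 4.82 and 4.52 on plate A of PdgfrbGFP and 8.08 and 7.93 on its plate B. For Il11 the pooled medians were 6.51 and 5.44, those on plate B of Acta2GFP 6.34 and 5.97 and those on plate B of PdgfrbGFP 8.08 and 7.93, whereas plate A of PdgfrbGFP, with 4.36 and 4.61, had the opposite order. Depth was 285682 gene counts with Il6 and 247962 without over all plates, and 281250 and 291486 within plate B of PdgfrbGFP. For Lif it was 330092 and 235804 over all plates, and on each of the 5 plates the cells with Lif were the deeper ones, for example with 480412 and 277407 on plate A of PdgfrbGFP and 290246 and 288289 on its plate B. Whether dissociation or depth had a part in the Il6, Lif and Il11 values was not tested.

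**Figure D5:**
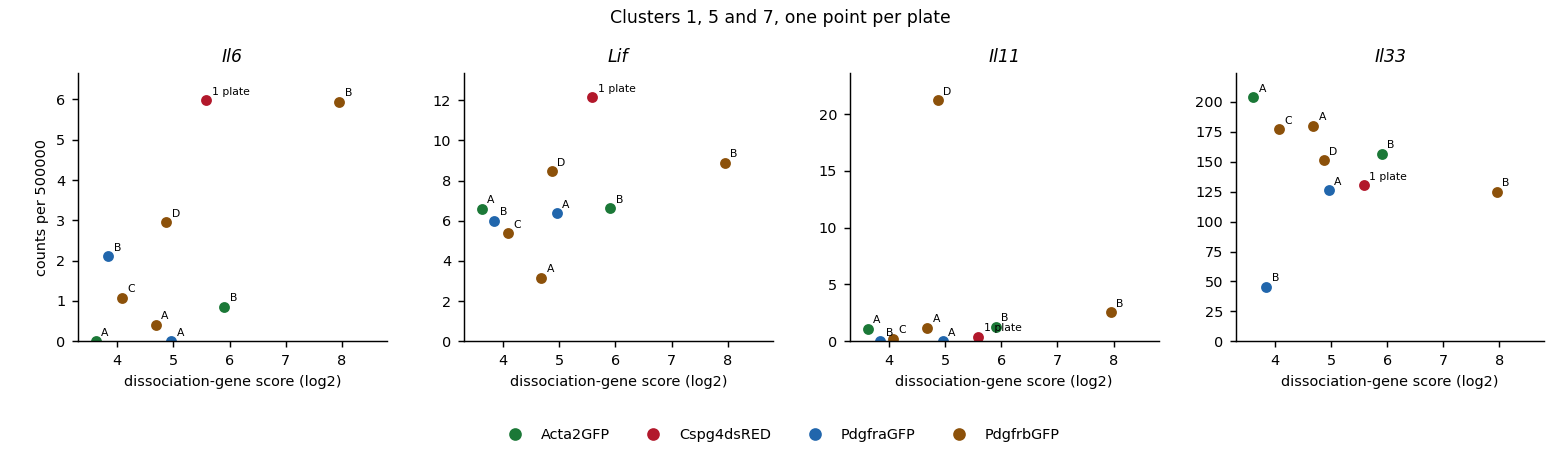
Each point is a plate, lettered within its line, with the mean log2 score of 16 dissociation genes across and the level in clusters 1, 5 and 7 up, as counts per 500000. Plate B of PdgfrbGFP has the highest score (7.95) and an Il6 level of 5.95, matched only by the Cspg4dsRED plate (5.99, from 2 cells), whereas Il33 was highest on plate A of Acta2GFP (203.8), where the score was 3.62.

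The start windows of the 3 ligand genes are shown because each holds a match to the AP-1 motif TGANTCA (capitals), the motif bound by Fos and Jun proteins, whose genes are part of the dissociation score. The windows are from RefSeq, build GRCm38.p6, at chr5:30012864-30013163 (plus strand), chr11:4257318-4257617 (plus strand) and chr7:4778092-4778391 (minus strand, shown in the direction of the gene).
Il6: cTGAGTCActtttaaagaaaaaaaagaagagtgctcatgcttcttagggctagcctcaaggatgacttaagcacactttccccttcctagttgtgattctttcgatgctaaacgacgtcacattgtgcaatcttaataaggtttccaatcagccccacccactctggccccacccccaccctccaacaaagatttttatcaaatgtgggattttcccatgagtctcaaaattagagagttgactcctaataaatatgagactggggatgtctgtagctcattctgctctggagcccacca
Lif: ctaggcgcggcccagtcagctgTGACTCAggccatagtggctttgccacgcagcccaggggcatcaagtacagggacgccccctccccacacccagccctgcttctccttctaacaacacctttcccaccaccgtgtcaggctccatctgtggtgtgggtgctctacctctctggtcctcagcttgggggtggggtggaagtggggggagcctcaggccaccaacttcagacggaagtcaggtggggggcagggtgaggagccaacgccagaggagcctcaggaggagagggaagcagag
Il11: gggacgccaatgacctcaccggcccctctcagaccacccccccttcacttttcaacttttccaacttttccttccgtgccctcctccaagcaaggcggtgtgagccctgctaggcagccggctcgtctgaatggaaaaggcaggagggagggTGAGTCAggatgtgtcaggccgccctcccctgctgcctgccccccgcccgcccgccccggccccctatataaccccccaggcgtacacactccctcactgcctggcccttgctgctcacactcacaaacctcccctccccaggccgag
The first base of the match lies at -228 in Lif and -98 in Il11, counted from the start, and in Il6 next to the upstream end of the window. Of the 15 windows of the 10 members 4 had such a match, with Osmr at 4 past the start, and 7.81% of all windows have one. A match is a description of letters and was not tested as a site.

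Il33 and Il1rl1 were also examined in the same cells. In cluster 2 41 cells (31.3%) had a count of both, where the product of the separate shares was 27.6%, and after thinning 18 cells (13.7%) against 9.92%. In cluster 5 the shares were 25.2% and 25.2%, in cluster 1 19.9% and 17.96% and in cluster 7 18.8% and 18.9%. Outside cluster 2 the Il1rl1 counts behind these shares were the low ones described above. Il33 in cluster 2 was itself at 9.90 or less, and its counts were not examined by plate position. Il1r1 and Il1rl1 shared 82 cluster 2 cells (62.6%, product 62.9%).

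The genes whose pattern over the 21 sums of cluster and line was most like that of a member were ranked by Pearson r of log2 levels among 8283 genes. For Il1rl1 they were Slco4a1 (r = 0.991), Lpar3 (0.985) and Trpa1 (0.982), and for Il33 Serpinf1 (0.979), C3 (0.977) and Gm16897 (0.972). Lif was most like Apbb1ip (0.908), Colgalt2 (0.889) and Gm16897 (0.887). For Il1r1 they were Tmem176b (0.874), Ctsc (0.841) and Tmem176a (0.818), for Il11ra1 Lpgat1 (0.891), Gm36569 (0.861) and Fbln5 (0.859), and for Il6st Abca9 (0.889), Eea1 (0.802) and Daam1 (0.792). Osmr (Men1, 0.831, Gpc6, 0.778, and Arhgap24, 0.751) and Il1rap (Ppic, 0.767, Tcf21, 0.734, and Gcc2, 0.725) had looser neighbours. The sums share lines, plates and depth, so these values only describe the likeness, and among the members themselves the closest pair was Il33 with Lif (0.815).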

How the data were processed

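Single cells were sorted into 384-well plates and sequenced by SmartSeq2 as single reads without molecular identifiers, so a count is a read, not a molecule. Per the labels and the methods of the study, the authors demultiplexed and trimmed the reads, aligned them to GRCm38 (mm10) with TopHat2 and Bowtie, and counted them per gene with featureCounts, and the deposited counts are raw whole numbers per gene and cell. The annotation release and the use of strand are not given in the sources used here. Cells of low or very high complexity, without Pdgfra or Pdgfrb, or with endothelial or immune signatures had been removed by the authors before deposit, and no doublet caller was run here. Of 46517 genes 46005 were given a symbol from GENCODE by their Ensembl ID, and 92 spike-ins (1.36% of counts) were left out.

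The members, gene lists and comparisons were chosen with earlier results of these data known. Every member tested is named in every comparison, other pathway genes where they passed the threshold (at most 5 per comparison), and the 3 genes most like each member with at least 10 counts per 500000 in a cluster. Raw counts of the cells of a cluster were summed within each reporter line (at least 10 cells, 21 sums) and tested with the quasi-likelihood test of edgeR 4.0.16 (TMM, filterByExpr, R 4.3.3) over all genes, with Benjamini-Hochberg adjustment at 0.05. The line contrasts used sums per plate. SE was taken from the fold change and the F statistic of that test. DESeq2 1.42.0, no filter, the line as a replicate block, plates as samples, at least 3 cells per sum, all sums in one fit and each line or plate left out were the alternatives. The scripts were tested on simulated counts. The pathway gene called lower in cluster 2 than in clusters 1, 5 and 7 and 1 gene that overlaps a member are not reported here.

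Deviations of the same line from its group means correlated at 0.152 to 0.175 between fibroblasts and mural cells and at 0.133 to 0.171 between clusters 7 and 1, over 3 lines each, and at 0.0851 to 0.115 between cluster 2 and clusters 1, 5 and 7. The lines pair the groups, since cells of a line occur in both. Within a line, however, the groups lie unevenly on its plates. In PdgfrbGFP, plates A and B held 228 and 232 of the 532 cells of clusters 1, 5 and 7. Plates C and D held 32 and 42 of its 82 cells of cluster 3, and 49 and 47 of its 104 of cluster 4. In Acta2GFP, plate A held 40 of 44 cells of cluster 2 and 161 of 429 of clusters 1, 5 and 7. Class and plate are thus partly confounded within a line, which the block does not remove. The fits were made without the block, as planned, and the blocked value is given where it changes a call. The dissociation score is the mean of log2(count per 500000 + 1) over 16 genes.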

Additional observations from a re-analysis of the deposited data

Results flagged for a closer look

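Of 31 groups of 4 lines or plates examined, 4 held a value whose gap to its nearest neighbour, as a share of the whole range, was above Dixon's 95% critical value. Chance marks about 1 in 20 such groups. Il1r1 in cluster 5 lay at 98.6 counts per 500000 in Cspg4dsRED, from 13 cells, and at 8.85 to 21.8 in the other lines. Il6 in cluster 5 lay at 6.73 on plate B of PdgfrbGFP and at 0 to 0.0623 on the other plates of that line. Il11 lay at 21.2 in clusters 1, 5 and 7 of plate D of PdgfrbGFP, from 7 cells, and at 0.224 to 2.58 on the other plates. In cluster 5 alone Il11 lay at 29.9 on plate D and at 0 to 4.08 on the others. No cause of these values was tested.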

How the results depend on the processing

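No called result reversed. Percentages are shares of the genes tested under each setting. Of 694 member fold changes under an alternative, 640 kept their side of the threshold, 34 lost a call and 20 gained one, and 2 more had no adjusted p in DESeq2. Of 210 levels in clusters with an SD over lines 24 moved by more than 1 SD, and of 30 in cluster 8, which has no SD, 24 changed in value. In edgeR 6.57% of genes tested were called for fibroblasts against mural cells, 7.26% for cluster 2 against 1, 5 and 7, 2.49% for cluster 7 against 1, 0.977% for cluster 2 against 6, 0.668% for cluster 4 against 3, 1.04% for cluster 8 against 3 and 0% for both line contrasts. DESeq2 called 15.8%, 15.5%, 8.49%, 9.65%, 5.92% and 5.88% in the same order, and 0.141% and 1.55% for Acta2GFP and PdgfraGFP against PdgfrbGFP. Without a filter on low counts 2.63%, 1.85% and 1.84% were called for cluster 2 against 6, 4 against 3 and 8 against 3, and 3.81%, 3.55% and 1.42% of a larger number of genes for fibroblasts, 2 against 1, 5 and 7, and 7 against 1. With plates as samples 16.1%, 12.1%, 5.3%, 2.18% and 3.49% were called for fibroblasts, cluster 2 against 1, 5 and 7, 7 against 1, 4 against 3 and 8 against 3. The replicate block gave 3.08%, 1.26%, 0.54% and 1.04% for fibroblasts, 7 against 1, 2 against 6 and 4 against 3. At least 3 cells gave 1.39% for 7 against 1, and a single fit of all sums, which tests more genes, gave 0.488%, 0.957% and 0.819% for 7 against 1, 2 against 6 and 4 against 3. With a line or plate left out the ranges were 1.81 to 5.81% (fibroblasts, lowest without PdgfrbGFP), 1.18 to 7.6% (cluster 2 against 1, 5 and 7, lowest without Acta2GFP), 0.135 to 2.71% (7 against 1, lowest without Acta2GFP), 0.394 to 11% (2 against 6, lowest without PdgfrbGFP, highest without PdgfraGFP), 0.3 to 2.44% (4 against 3, lowest without Acta2GFP, highest without Cspg4dsRED), 2.55 to 4.23% (8 against 3, highest without Cspg4dsRED) and 0 to 0.434% (PdgfraGFP against PdgfrbGFP, highest without plate A of PdgfraGFP).

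The number of members called moved as follows. For fibroblasts against mural cells (4) the replicate block left 1, a single fit 3, DESeq2 5 and leaving out lines 0 to 4, and with plates Il11 took the place of Il11ra1 among the 4. For cluster 2 against 1, 5 and 7 (5) leaving out lines left 1 to 4, and the replicate block, no filter and a single fit each left 4, without Il11ra1. DESeq2 called 5, with Il6 and without Il33, which had no adjusted p. For cluster 7 against 1 (1) the number was 2 with DESeq2, no filter or plates, the added one being Il33, by whose levels the pair was chosen, 0 with the replicate block, at least 3 cells or a single fit, and 0 to 2 with a line left out. For cluster 2 against 6 (1) it was 4 with DESeq2, 3 with no filter or a single fit, 2 with plates and 0 to 4 with a line left out. For PdgfraGFP against PdgfrbGFP (0) DESeq2 called 1. The causes were not tested. Il6, Il11 and Lif rest on few cells, and clusters 4, 6 and 8 on 2, 2 and 1 lines, which limits what their comparisons can show.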

Other observations

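Il1r1, Il1rl2 and Il1rl1 are neighbours on chromosome 1, on the plus strand, with Il1r2 before them at 40074079 to 40125231 and Il18r1 (40465552 to 40500854) and Il18rap (40515362 to 40551705) after them. In cluster 2 Il1r1, Il1rl2, Il1rl1 and Il18rap were each higher than in clusters 1, 5 and 7. Il18r1, which lies between Il1rl1 and Il18rap and encodes the binding chain of the IL-18 receptor, lay at 0.248, 0.121 and 0 in the lines of cluster 2, and Il1r2, the decoy receptor for IL-1, at 0 in all 3. Il1rn, the gene of the IL-1 receptor antagonist, lay at 12.6, 3.39 and 0.326 in cluster 2, from 3, 5 and 2 cells, and at no more than 0.269 in the lines of clusters 1, 5 and 7.

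Lifr and Il6ra encode partners of gp130. Lifr lay at 47.2, 22.1 and 51.3 in cluster 1 and at 6.47, 0.179 and 9.99 in cluster 7, a difference that edgeR did not call (log2 fold change -3.02, adjusted p = 0.256). Il6ra lay at 81.5, 93.9 and 102.6 in cluster 2 and at 7.17 in cluster 8. Il6ra was not called by edgeR in cluster 2 against clusters 1, 5 and 7 (0.93, adjusted p = 0.207).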
